A study of Mus musculus with 8 samples.

Results

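The interleukin-1 and interleukin-18 family was followed in pancreatic islets under T cell attack, through the cytokine genes Il1a, Il1b, Il18 and Il33, the signalling receptor gene Il1r1 and the antagonist genes Il1rn, Il1r2 and Il18bp. Its members were taken as every probe set whose platform annotation gave exactly 1 of these 8 symbols, which found 11 of the 45101 probe sets on the array. All 8 genes were present, among 18194 genes with such a probe set. Il1rn had 3 probe sets, Il1r1 had 2 and each of the others had 1.

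The study measured RNA of islets cut by laser capture from frozen, methanol-fixed pancreas of NOD.Scid mice. This strain lacks mature T and B lymphocytes and keeps its macrophages, dendritic cells and neutrophils. In the diabetogenic arm (3 arrays, days 3, 4 and 8) the mice had received CD4+ T cells carrying the BDC2.5 transgenic receptor, which recognises a beta cell antigen. In the protected arm (4 arrays, days 3, 4, 5 and 8) the mice had received the same T cells and monoclonal antibody against interferon-γ on day -1 and day 2, and per the submitters' design text did not become diabetic. The untreated group (1 array, day 0) had received neither cells nor antibody. RNA of 5 mice was pooled for each array, of which about 30 ng was amplified, and no arm and day had a second array. Islets of the diabetogenic arm at day 5 were too swollen to dissect, per the design text. No label names a control antibody, so neutralisation of interferon-γ cannot be told apart from injection of an antibody. Each array measured all cells of the captured tissue, so fewer cells of a type and less RNA per cell cannot be told apart. Ages of the mice were not given in the sources used here.

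Interleukin-1α and interleukin-1β act through the receptor encoded by Il1r1, and interleukin-1β and interleukin-18 are made as inactive precursors that caspase-1 cuts in the inflammasome. Each limb has its own brakes: the Il1rn product occupies the receptor without signalling, the Il1r2 product is a decoy receptor that captures interleukin-1, and the Il18bp product is a secreted protein that captures interleukin-18. In the islet, interleukin-1β is known as a cytokine toxic to beta cells, interleukin-18 as an inducer of interferon-γ in lymphocytes, and interleukin-33 as an alarm signal of stromal and endothelial cells.

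The deposited values were linear intensities, read against 2 measures of background on the same array. Array medians lay between 3.14 and 3.96, and 27 bacterial control probe sets, which have no counterpart in mouse RNA, read between 1 and 14.4 over the arrays. Their highest reading was 5.01 to 5.45 on the untreated, both day 3 and the protected day 5 arrays, and 9.82 to 14.4 on both arrays of day 4 and of day 8. Spiked hybridisation controls had medians of 1.48 to 2.29 on the untreated and both day 3 arrays and of 551 to 1712 on the 5 later arrays, so these 3 arrays stood apart from the others. The diabetogenic array of day 4 also stood apart, with a 99th percentile of 25.6, beside 67.0 to 94.9 elsewhere, and 0.90% of probe sets at 8 or more times its median, beside 2.06% to 5.35%. Ratios of 3' to 5' probe sets, a sign of RNA length, ran from 2.25 to 13.8 on the diabetogenic, 5.01 to 24.2 on the protected and 1.86 on the untreated arrays for Actb. For Gapdh they ran from 2.78 to 19.0 on the diabetogenic and 6.40 to 10.8 on the protected arrays and stood at 5.14 on the untreated array. Acinar markers differed between the arms, with all 6 tested lower in diabetogenic islets at an unadjusted p under 0.05, 0 passing, and a median of -2.30. Their summed intensity was 1271, 136 and 156 in diabetogenic islets at days 3, 4 and 8, against 1166, 3255, 564 and 892 in protected islets at days 3, 4, 5 and 8, and 1354 on the untreated array. The part of acinar tissue and of these array properties in the results on the family was not tested. The 8 tested beta cell markers exceeded all bacterial controls in a number of 2 to 7 on the diabetogenic arrays, 2 to 8 on the protected arrays and 8 on the untreated array. Il18bp exceeded all bacterial controls on 6 of 8 arrays and Il1b on 5. Il1r1, Il18, Il33 and 1 probe set of Il1rn did so on 3 arrays, Il1r2 and another probe set of Il1rn on 1, and Il1a on 0.

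**Figure D1:**
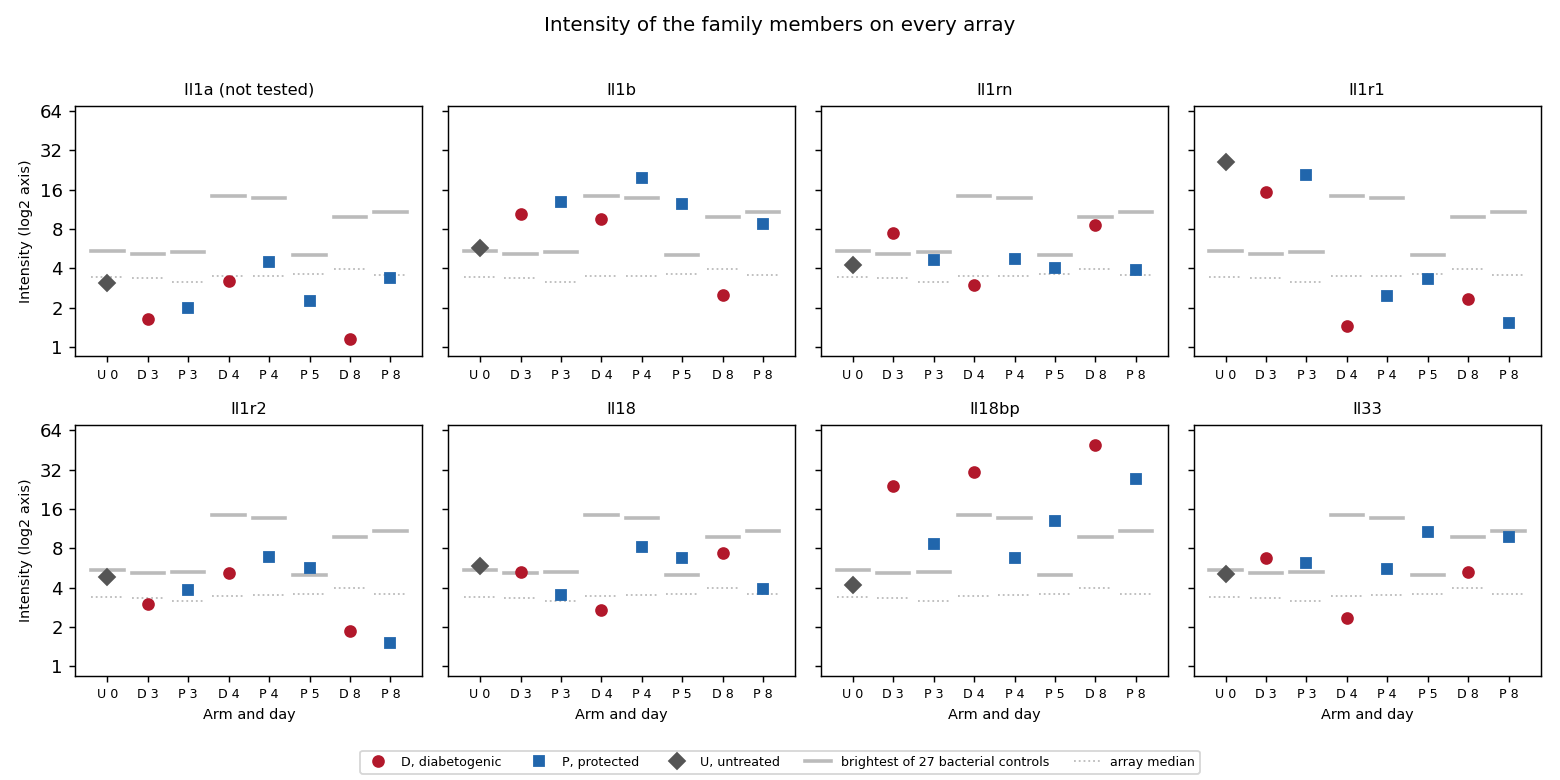
Intensity (log2 axis) of each family member on each array, by arm and day, with red circles for diabetogenic, blue squares for protected and grey diamonds for untreated islets, and for Il1rn and Il1r1 the probe set used in the tests. Thick grey bars give the brightest of 27 bacterial controls and dotted lines the median of the array, and Il18bp stands above the bar on all 3 diabetogenic arrays and on 3 of 4 protected arrays, whereas Il1a stands below it everywhere.

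Differences were taken on log2(intensity + 2.155), a scale that understates the change of dim genes, and the arms were compared over the matched days 3, 4 and 8 with limma and day as a block. Of the 8 members, 7 had a probe set at or above the median on at least 2 arrays and were tested among 16397 genes. Il18bp had the higher and Il1b the lower values in diabetogenic islets on all 3 days. No other tested member kept its sign in the probe set used in the tests, while 31.7% of all genes did. Neither these 2 nor any other of the 7 passed a limma adjusted p of 0.05 between the arms, where 0.11% of all tested genes passed (0.0183% higher and 0.0915% lower in diabetogenic islets). At an unadjusted p under 0.05 there were 2 of 7, again Il18bp and Il1b, against 8.97% of all genes. On the log2(intensity + 2.155) scale, at least 2-fold apart on a single day were 1 of 7 on day 3 (Il18bp, against 1.85% of genes), 2 of 7 on day 4 (Il18bp and Il18, against 19.9%) and 1 of 7 on day 8 (Il1b, against 22.9%). The variance trend lent 30.4 degrees of freedom to the 2 of a gene's own spread, so the errors rest mostly on genes of like level.

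Il18bp, on chromosome 7 (102015074 to 102018232, GRCm38.p6), encodes the secreted antagonist of interleukin-18 and is known as a gene that interferon-γ induces. Its probe set 1450424_a_at read 24.1, 30.7 and 49.7 in diabetogenic islets at days 3, 4 and 8, against 8.62, 6.71, 12.9 and 27.1 in protected islets at days 3, 4, 5 and 8, and 4.19 on the untreated array. The diabetogenic array was the higher on each matched day, and the untreated array was below all 7 others, which was so for 8.87% of genes. The arms' ranges overlapped through the protected array of day 8, which lay above the diabetogenic array of day 3. The mean was 34.9 ± 13.3 in diabetogenic islets (SD, n = 3) and 13.8 ± 9.19 in protected islets (SD, n = 4).

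On the log2 scale Il18bp differed by 1.29, 1.89 and 0.83 between the arms on days 3, 4 and 8. Higher values on all 3 days were found for 11.7% of genes. On this scale values in diabetogenic islets were higher by 2-fold or more for 1.34% of genes on day 3 and 5.78% on day 4, the days on which Il18bp was past that fold. Over the 3 days the difference was 1.34 ± 0.44 (SE, limma), or 2.52-fold on this scale, with an unadjusted p of 0.00490 and an adjusted p of 0.385, so it did not pass. This difference lay above those of 99.9% of the tested genes. Only after cyclic loess, of the 12 alternatives tried, did Il18bp pass, with a difference of 1.83 and an adjusted p of 0.0430 from limma. Leaving out a day pair moved the difference to 1.36 (day 3), 1.06 (day 4) or 1.59 (day 8). Against untreated islets the difference was 2.49 ± 0.93 in the diabetogenic arm (limma adjusted p = 0.894) and 1.17 ± 0.90 in the protected arm (limma adjusted p over 0.99), in a fit that takes the lone untreated array to vary like the others. No gene of 16397 passed in either of these limma comparisons. At an unadjusted p under 0.05 stood 2.74% of genes in the diabetogenic arm, with Il18bp and Il1r1 among the 7 members, and 2.26% in the protected arm, with Il1r1.

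Genes that interferon-γ is known to induce differed between the arms in the same direction as Il18bp, and 0 of the 4 tested passed, with 2 at an unadjusted p under 0.05 (limma). The median of their differences was 1.35, beside -0.07 over all tested genes. Cxcl9, a chemokine gene, differed by 3.58, 2.59 and 0.63 on days 3, 4 and 8, and Gbp2, which encodes a guanylate-binding GTPase, by 2.80, 1.26 and -0.19. For Igtp, another interferon-induced GTPase gene, the differences were 2.91, 0.84 and 0.49, and for the transcription factor gene Irf1 they were 1.15, 0.68 and 0.39. In these 4 genes the difference was greatest on day 3 and smallest on day 8, whereas that of Il18bp was greatest on day 4. The day 4 pair holds the diabetogenic array that stood apart. The protected array of day 8 read 27.1 for Il18bp, the highest of the protected arrays, and also the highest of them for Cxcl9 (56.8), Gbp2 (83.1) and Igtp (37.3), but not for Irf1 (15.6, against 18.2 on the protected array of day 3).

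**Figure D2:**
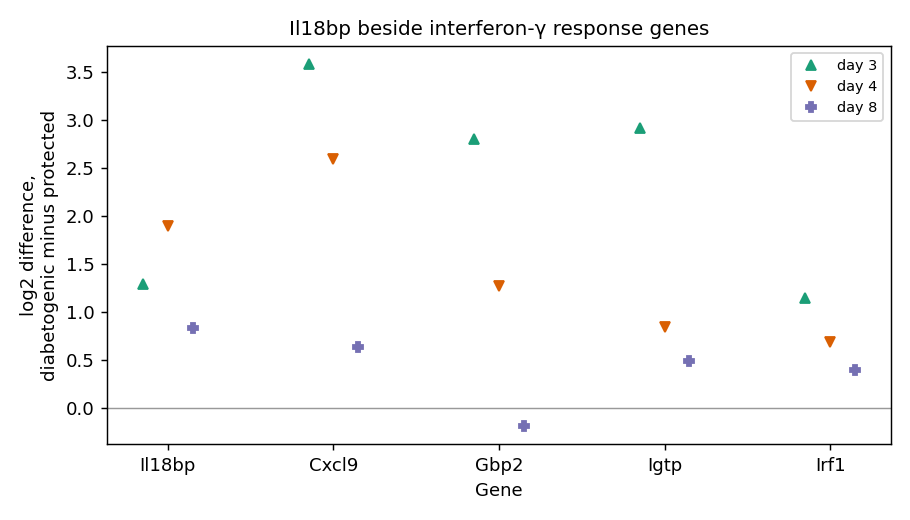
Difference between the arms (log2, diabetogenic minus protected) of Il18bp and of 4 interferon-γ response genes on days 3, 4 and 8, with 1 array per arm and day and no error for a single day. The response genes run downward with time, to -0.19 for Gbp2 on day 8, while Il18bp stood at 1.29, 1.89 and 0.83.

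The 250 bases before the transcript start of Il18bp are shown because interferon-γ acts on its target genes through short promoter elements. The letters searched, on both strands, were TTCNNNGAA for the interferon-γ activated site and, for the interferon-stimulated response element, GAAA and GAAA set apart by any 2 bases. Over the 12 promoters that RefSeq gives for the 8 members, the activated site was found in 1, that of Il1r2, and the response element in 0. Of 32851 mouse promoters of this length, 7.02% held the activated site and 2.98% the response element. A match or its lack describes only these windows. The sequences (RefSeq, GRCm38.p6) are those of Il18bp at chr7:102018233-102018482 on the minus strand and of Il1r2 at chr1:40085843-40086092 on the plus strand, with the matching letters in capitals. The Il1r2 window lies inside the gene's annotated span, before a downstream transcript start, and the match begins 111 bases before that start.
Il18bp: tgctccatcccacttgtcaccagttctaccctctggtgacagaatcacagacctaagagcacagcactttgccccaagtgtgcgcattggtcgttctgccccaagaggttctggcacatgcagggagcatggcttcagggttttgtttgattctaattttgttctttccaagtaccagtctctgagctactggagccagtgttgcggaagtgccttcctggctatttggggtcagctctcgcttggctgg
Il1r2: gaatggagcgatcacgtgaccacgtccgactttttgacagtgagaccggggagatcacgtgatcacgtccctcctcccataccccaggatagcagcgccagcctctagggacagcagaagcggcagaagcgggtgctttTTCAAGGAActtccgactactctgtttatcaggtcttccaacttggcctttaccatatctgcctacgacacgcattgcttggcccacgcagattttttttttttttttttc

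Il18 itself, on chromosome 9 (50554700 to 50581841), encodes the cytokine that the Il18bp product captures. It read 5.32, 2.72 and 7.37 in diabetogenic islets at days 3, 4 and 8, against 3.54, 8.18, 6.70 and 3.93 in protected islets at days 3, 4, 5 and 8, and 5.82 on the untreated array. The arms overlapped widely and changed order, with the diabetogenic array higher on days 3 and 8 and lower on day 4. The difference over the 3 days was -0.02 ± 0.37 (limma adjusted p = 0.993), which changed sign without the day 4 pair (0.52). Il18 exceeded all bacterial controls on 3 arrays, the untreated, the diabetogenic of day 3 and the protected of day 5, so a small change was not detectable at this signal.

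Il1b, on chromosome 2 (129364569 to 129371164), encodes interleukin-1β, a product chiefly of activated monocytes and macrophages. It read 10.4, 9.59 and 2.5 in diabetogenic islets at days 3, 4 and 8, against 12.8, 19.7, 12.4 and 8.75 in protected islets at days 3, 4, 5 and 8, and 5.69 on the untreated array. The diabetogenic array was the lower on every matched day, as for 20.1% of genes, and the arms overlapped only because the protected array of day 8 lay below the diabetogenic arrays of days 3 and 4. The diabetogenic array of day 8 had the lowest reading of all 8, below its array's median. The means were 7.49 ± 4.34 in diabetogenic islets (SD, n = 3) and 13.4 ± 4.54 in protected islets (SD, n = 4).

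The arm differences of Il1b were -0.26, -0.89 and -1.23 on days 3, 4 and 8, so that only on day 8 was it at least 2-fold lower in diabetogenic islets, as were 13.9% of genes. Over the 3 days the difference was -0.79 ± 0.38 (SE, limma), with an unadjusted p of 0.0443 and an adjusted p of 0.543, and 7.03% of genes had a difference as low or lower. Neither Il1b reading of day 8 exceeded the bacterial controls, and without that pair the difference was -0.57. Against untreated islets it was 0.17 ± 0.78 in the diabetogenic arm and 0.94 ± 0.75 in the protected arm, neither passing. The sign in the diabetogenic arm turned to -0.09 without its day 3 array and to -0.04 without its day 4 array.

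Markers of macrophages and monocytes differed between the arms as well. Of 13 tested, 12 had lower values in diabetogenic islets, 1 of them, the scavenger receptor gene Cd163, passed, and the median difference was -0.67 beside -0.07 over all genes. Over all tested genes 43.0% had a positive difference. An unadjusted p under 0.05 (limma) was found for 8.97% of all genes and for 2 of these 13 markers. Their summed intensity was 302, 189 and 2189 in diabetogenic islets at days 3, 4 and 8, against 404, 1705, 1579 and 1908 in protected islets at days 3, 4, 5 and 8, and 90.3 on the untreated array. From 2 to 9 of them exceeded all bacterial controls on the diabetogenic arrays, 6 to 12 on the protected arrays and 5 on the untreated array. The sum and Il1b were both lower in the diabetogenic arm on days 3 and 4. On day 8 the sum was higher there, with the highest value of all 8 arrays, and Il1b lower. Most of that highest sum came from Csf1r (1067) and Lyz1 (891). On day 8 Csf1r, Lyz1, Lyz2, Itgam and Fcgr3 were higher in diabetogenic islets, and the other tested markers of the list were lower. The part of these cells in the result was not tested. Of 8 tested dendritic cell markers 7 had lower values in diabetogenic islets, 4 had an unadjusted p under 0.05 (limma) and 0 passed. They summed to 30.9 to 42.3 on the diabetogenic arrays, 49.0 to 176 on the protected arrays and 23.7 on the untreated array. At most 3 of them exceeded the bacterial controls on any array and 0 on both day 4 arrays, and Fscn1 alone gave 94.4 of the highest sum. The 8 tested neutrophil markers summed to 35.4 to 53.1 on the diabetogenic arrays, 35.2 to 74.6 on the protected arrays and 37.8 on the untreated array, with at most 3 of them above the bacterial controls on any array.

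Il1a, on chromosome 2 (129299609 to 129310186), encodes interleukin-1α, which is active without cutting by caspase-1. It read 1.63, 3.18 and 1.16 in diabetogenic islets at days 3, 4 and 8, against 2.00, 4.46, 2.23 and 3.34 in protected islets at days 3, 4, 5 and 8, and 3.09 on the untreated array. Only the protected array of day 4 reached its array's median, and no array exceeded the bacterial controls. Il1a was therefore not tested, and its transcript was not detectable above background here. With no filter on dim probe sets its arm difference was -0.39 (limma adjusted p = 0.714).

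**Figure D3:**
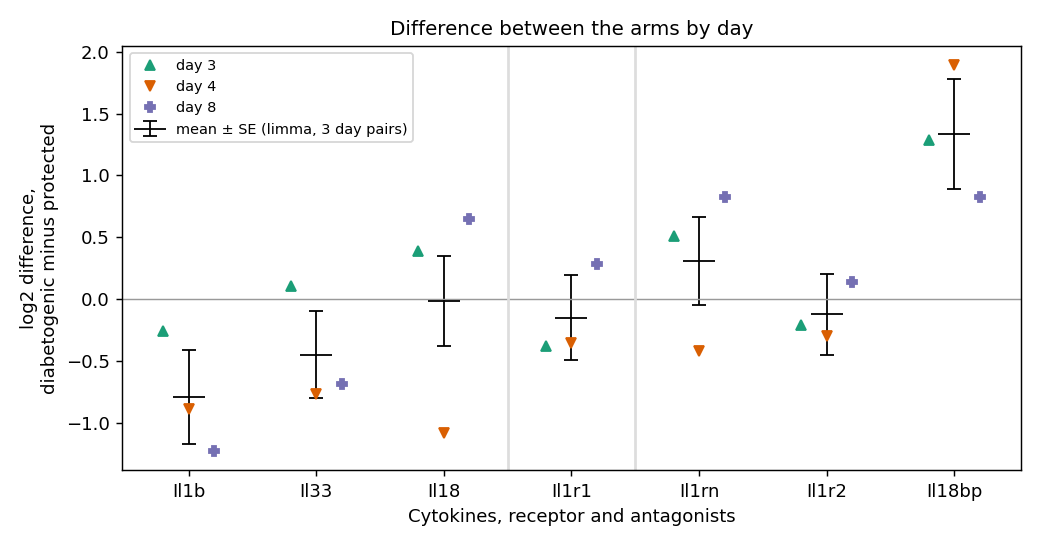
Difference between the arms (log2, diabetogenic minus protected) of the 7 tested members on days 3, 4 and 8, with cytokines on the left, the receptor Il1r1 in the middle and the antagonists on the right. Black bars give the limma mean and SE over the 3 day pairs. Il18bp lies above 0 and Il1b below 0 on all 3 days, while Il33, Il18, Il1r1, Il1rn (in the probe set used in the tests) and Il1r2 change sign between days.

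Il1rn, on chromosome 2 (24336860 to 24351491), encodes the interleukin-1 receptor antagonist, and was read by 3 probe sets. The one used in the tests, 1425663_at, read 7.46, 3.00 and 8.60 in diabetogenic islets at days 3, 4 and 8, against 4.59, 4.74, 4.02 and 3.91 in protected islets at days 3, 4, 5 and 8, and 4.25 on the untreated array. The diabetogenic arrays of days 3 and 8 lay above all protected arrays and that of day 4 below them. Its differences were 0.51, -0.42 and 0.83 on the 3 days, and 0.31 ± 0.35 over them (limma adjusted p = 0.813). Leaving out a day pair moved this to 0.20 (day 3), 0.67 (day 4) or 0.046 (day 8).

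A second Il1rn probe set, 1451798_at, read 6.74, 8.79 and 3.48 on the diabetogenic arrays, against 5.47, 4.2, 5.12 and 2.21 on the protected arrays and 2.17 on the untreated array. Here the diabetogenic array was the higher on every matched day, day 4 included, by 0.22, 0.78 and 0.37, and the arms overlapped. In a limma fit of all 28847 probe sets its difference was 0.46 ± 0.34 (adjusted p = 0.748). The third, 1423017_a_at, read 3.55, 1 and 3.14 on the diabetogenic arrays, against 2.62, 2.40, 1.24 and 3.95 on the protected arrays and 3.77 on the untreated array, and no reading exceeded the bacterial controls. It gave -0.16 ± 0.32, from readings at background. On day 4 the first and second probe sets differed in sign, and neither exceeded the bacterial controls there in either arm.

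**Figure D4:**
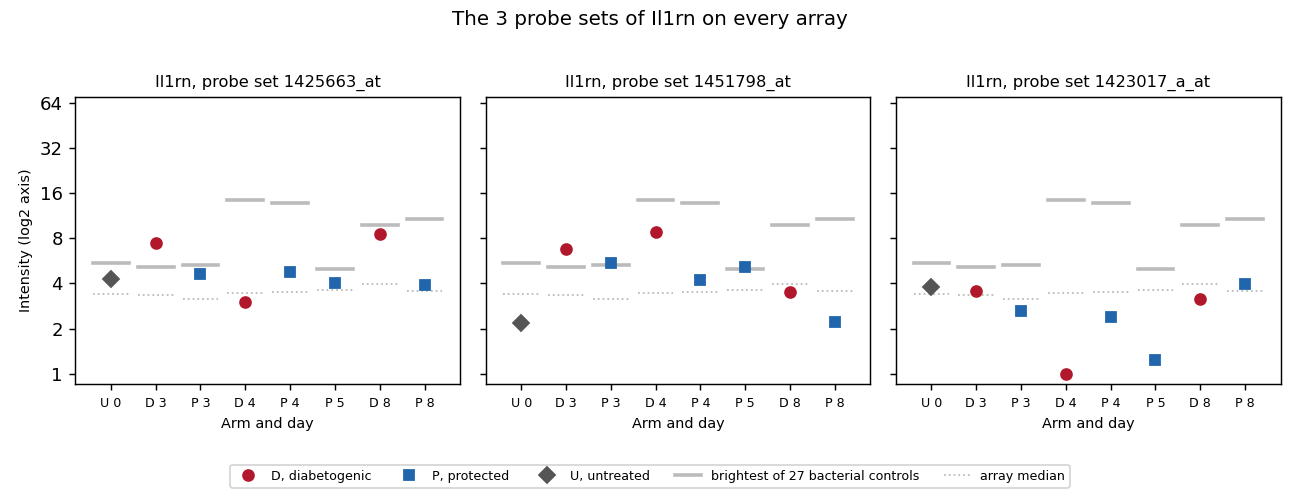
Intensity (log2 axis) of the 3 Il1rn probe sets on each array, by arm and day, with red circles for diabetogenic, blue squares for protected and grey diamonds for untreated islets. On day 4 the diabetogenic array read 3.00 for 1425663_at, 8.79 for 1451798_at and 1 for 1423017_a_at, all below the brightest bacterial control (thick grey bar), and dotted lines mark array medians.

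Il1r2, on chromosome 1 (40084692 to 40125230), encodes the decoy receptor for interleukin-1 and its promoter is printed with that of Il18bp. It read 3.00, 5.15 and 1.88 in diabetogenic islets at days 3, 4 and 8, against 3.81, 6.83, 5.68 and 1.51 in protected islets at days 3, 4, 5 and 8, and 4.85 on the untreated array. Both arms were highest on day 4 among the matched days and lowest on day 8, and their ranges overlapped. The differences were -0.21, -0.30 and 0.14 on the 3 days and -0.12 ± 0.33 over them (limma adjusted p = 0.940). Il1r2 exceeded the bacterial controls only on the protected array of day 5.

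Il1r1, on chromosome 1 (40222480 to 40316201), encodes the signalling receptor for interleukin-1 and differed more between early and later arrays than between the arms. Its tested probe set, 1448950_at, read 15.4, 1.44 and 2.32 in diabetogenic islets at days 3, 4 and 8, against 20.7, 2.44, 3.33 and 1.53 in protected islets at days 3, 4, 5 and 8, and 25.8 on the untreated array. The untreated and both day 3 arrays were above all bacterial controls, and the 5 later arrays were below their medians. The lowest of these 3 lay 1.68 above the highest of the later 5 on the log2 scale. Among all genes 16.6% had these 3 arrays above the other 5, and 2.58% by at least 2-fold.

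This split of Il1r1 is the same as that of the spiked hybridisation controls given above, whose part in the result was not tested. Between the arms, which lie on the same side of the split on each matched day, Il1r1 differed by -0.38, -0.35 and 0.28, and by -0.15 ± 0.34 over the 3 days (limma adjusted p = 0.928). Against the untreated array it differed by -2.09 ± 0.96 in the diabetogenic arm (limma adjusted p = 0.894) and by -2.04 ± 0.93 in the protected arm (limma adjusted p over 0.99), and by only -0.67 and -0.29 where the day 3 array of each arm was taken alone. The 5 tested markers of endothelium, which is known to express Il1r1, summed to 25.3, 12.6 and 13.8 in diabetogenic islets at days 3, 4 and 8, against 26.4, 10.2, 44.8 and 33.5 in protected islets at days 3, 4, 5 and 8, and 27 on the untreated array. These sums were below that of the untreated array on 3 of the 5 later arrays and above it in protected islets at days 5 and 8. On both day 4 arrays and the diabetogenic array of day 8, 0 of the 5 markers exceeded the bacterial controls. Of the beta cell markers, Slc2a2, Pdx1, G6pc2, Slc30a8 and Ucn3 showed the split of Il1r1, and Ins2, Iapp and Nkx6-1 did not. Slc2a2 read 161 on the untreated and 73.7 and 75.8 on the day 3 arrays, against at most 11.7 later. The split was not particular to beta cell markers. Gcg and Sst, of the alpha, delta and PP cell markers, showed it, and Ppy did not. Gcg read 1996 on the untreated and 2205 and 2390 on the day 3 arrays, against at most 1279 later. Among genes of the other lists Cpa3, Irak1, Tollip and Ptgs2 also showed it, while others of their lists did not. The part of any of these cell types in the result was not tested. The second probe set of Il1r1, 1459777_at, read 1.42, 2.63 and 1.62 on the diabetogenic arrays, against 1, 2.69, 1.31 and 3.5 on the protected arrays and 2.26 on the untreated array, below the median everywhere, and showed no such split.

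Il33, on chromosome 19 (29925113 to 29960718), encodes an alarm cytokine that acts through its own receptor, ST2. It read 6.79, 2.36 and 5.23 in diabetogenic islets at days 3, 4 and 8, against 6.17, 5.54, 10.7 and 9.71 in protected islets at days 3, 4, 5 and 8, and 5.12 on the untreated array. The 2 highest readings were those of the protected arrays of days 5 and 8, and the arms overlapped. The differences were 0.10, -0.77 and -0.68 on days 3, 4 and 8 and -0.45 ± 0.35 over them (limma adjusted p = 0.715). Stromal markers, 8 tested, summed to 59.8, 66.7 and 333 in diabetogenic islets at days 3, 4 and 8, against 72.7, 82.6, 304 and 687 in protected islets at days 3, 4, 5 and 8, and 65.0 on the untreated array. The sum was higher in the protected arm on each matched day, and Col1a2 was its largest part on day 8 (223 in diabetogenic, 428 in protected islets). Over the matched days 5 of the 8 markers had lower and 3 higher values in diabetogenic islets. On day 4 only 1 of them in the diabetogenic and 2 in the protected arm exceeded the bacterial controls. The part of stroma in the values of Il33 was not tested.

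Cytokines were then set against their antagonists. For each array the log2 value of the cytokine, or of the receptor gene Il1r1 in the pair with Il1r2, was subtracted from that of the antagonist. Only the difference of this balance between the arms of a day was used, since levels of different probe sets cannot be compared. Over 6 such pairs, an exact two-sided sign-flip permutation test on 3 day pairs could give no p below 0.25. The balance of Il18bp over Il18 was higher in diabetogenic islets by 0.89, 2.98 and 0.18 on days 3, 4 and 8, with a mean of 1.35 ± 1.45 (SD, 3 pairs, exact p = 0.25, adjusted 0.5). On day 4 Il18bp was higher and Il18 lower in diabetogenic islets, and on days 3 and 8 both were higher. Without the day 4 pair, which holds the diabetogenic array that stood apart, the mean was 0.54.

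The balance of Il1rn over Il1b was higher in diabetogenic islets by 0.77, 0.47 and 2.05, with a mean of 1.10 ± 0.84 (SD, 3 pairs, exact p = 0.25, adjusted 0.5). That of Il1r2 over Il1b was higher by 0.05, 0.59 and 1.37, with a mean of 0.67 ± 0.66 (SD, 3 pairs, exact p = 0.25, adjusted 0.5). Without the day 8 pair these means were 0.62 and 0.32. Both share the Il1b values, which were lower in diabetogenic islets on all 3 days. Il1r2, and Il1rn in the probe set used in the tests, changed sign between days. Another Il1rn probe set, 1451798_at, was higher in diabetogenic islets on all 3 days. The remaining pairs changed sign between days: Il1rn over Il1a had a mean of 0.70 ± 0.83, Il1r2 over Il1a of 0.27 ± 0.52 and Il1r2 over Il1r1 of 0.03 ± 0.16. Their exact permutation p-values were 0.5, 0.75 and 0.75, each adjusted to 0.75. Readings at background entered every one of the 6 pairs: Il1a and Il1r2 exceeded the bacterial controls on no array of the matched days, and Il18 and Il1rn did so only on the diabetogenic array of day 3. None of the 6 balances passed, and with 3 day pairs none could.

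Other genes of the pathway were read as lists, against 43.0% of all tested genes with a positive difference between the arms. Of 8 receptors and coreceptors, 7 were tested and 0 passed (1 at an unadjusted p under 0.05, limma), with 4 positive and 3 negative differences and a median of 0.01. The greatest were 0.67 ± 0.32 for the receptor-like gene Il1rapl1, 0.47 ± 0.35 for Sigirr, which encodes an inhibitory receptor of the family, and -0.35 ± 0.36 for Il1rap, the shared coreceptor of interleukin-1 and interleukin-33. Il1rapl1 read 1 to 4.1 and exceeded the bacterial controls on no array, so its difference is one between readings at background. The receptor chains of interleukin-18 differed by -0.21 ± 0.37 (Il18r1) and 0.01 ± 0.32 (Il18rap). Of the other ligands of the family 5 were tested and 0 passed (0 at an unadjusted p under 0.05), with a median of -0.10, and the greatest differences were 0.45 ± 0.35 for Il1f6 and -0.39 ± 0.33 for Il1f9, which encode interleukin-36α and interleukin-36γ.

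Of 13 inflammasome and processing genes, 10 were tested and 0 passed (1 at an unadjusted p under 0.05), with 5 positive and 5 negative differences and a median of 0.13. The greatest were -0.82 ± 0.39 for the caspase gene Casp8 and -0.65 ± 0.47 for Pycard, which encodes the inflammasome adaptor. Casp1, the protease that matures interleukin-1β and interleukin-18, read 11.8, 3.00 and 3.97 in diabetogenic islets at days 3, 4 and 8, against 5.53, 1.35, 5.72 and 5.42 in protected islets at days 3, 4, 5 and 8, and 1.96 on the untreated array. Its difference was 0.37 ± 0.35 (limma adjusted p = 0.768), and the arms overlapped.

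Of 16 tested signalling genes 0 passed (0 at an unadjusted p under 0.05) and 14 had lower values in diabetogenic islets, with a median of -0.18 beside -0.07 over all genes. The greatest difference was that of Nfkbia, the inhibitor of NF-κB and itself a target of it, at -1.32 ± 0.77 (limma adjusted p = 0.617). Nfkbia read 220, 21.5 and 68.4 in diabetogenic islets at days 3, 4 and 8, against 333, 77.9, 214 and 210.39 in protected islets at days 3, 4, 5 and 8, and 93.3 on the untreated array. The diabetogenic array was the lower on each matched day. Irak1, a receptor-associated kinase, differed by -0.62 ± 0.45, and Irak3, an inhibitor of the pathway, by -0.58 ± 0.34.

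Of 16 genes known to be induced by interleukin-1, all were tested and 0 passed (3 at an unadjusted p under 0.05), with 6 positive and 10 negative differences and a median of -0.06. Saa3, an acute phase gene, was the greatest at 1.15 ± 0.39 (limma adjusted p = 0.402). It read 19.8, 7.20 and 53.4 in diabetogenic islets at days 3, 4 and 8, against 8.44, 1.84, 24.2 and 22.5 in protected islets at days 3, 4, 5 and 8, and 2.97 on the untreated array, and was the higher in the diabetogenic arm on each matched day. The next were Nos2, the inducible nitric oxide synthase gene, at 0.85 ± 0.36, the cytokine gene Il6 at -0.72 ± 0.32 and the chemokine gene Cxcl5 at 0.62 ± 0.33. The members of this list thus differed in both directions.

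Of 9 tested genes tied to interleukin-18 or interleukin-33, 1 passed (0.11% of all genes did) and 5 had an unadjusted p under 0.05 (8.97% of all genes did), with 6 positive and 3 negative differences and a median of 0.09. It was Arg1, which encodes arginase and marks alternatively activated macrophages, and its log2 difference, diabetogenic minus protected, was -2.22 ± 0.41 (limma adjusted p = 0.0101). Arg1 read 11.1, 6.05 and 1.07 in diabetogenic islets at days 3, 4 and 8, against 38.0, 65.3, 75.3 and 10.98 in protected islets at days 3, 4, 5 and 8, and 4.64 on the untreated array. The arms overlapped by a small margin, between the protected array of day 8 and the diabetogenic array of day 3. Against untreated islets Arg1 differed by 0.06 ± 1.07 in the diabetogenic arm and by 2.58 ± 1.04 in the protected arm, neither passing. The interleukin-12 receptor gene Il12rb2 differed by 1.05 ± 0.35, Il13 by 0.95 ± 0.35, Il12b by -0.79 ± 0.36 and Il4 by -0.71 ± 0.33, none passing. Most readings of these genes were at background. Il12rb2 exceeded the bacterial controls on no array, and Il4 only on the protected array of day 5. Il13 did so only on that array and the diabetogenic array of day 4, and Il12b only on that of protected day 5 and the untreated array. Ifng, which interleukin-18 is known to induce, read 43.8, 17.4 and 3.8 on the diabetogenic arrays, against 27.6, 15.9, 31.8 and 7.62 on the protected arrays and 1.92 on the untreated array, a difference of 0.01 ± 0.42 between the arms.

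The genes most like each of 4 members over the 8 arrays were taken by Pearson's r of log2 values, as a description among 16396 genes that share the same arrays. Il18bp was closest to Lrp2, an endocytic receptor gene (r = 0.98), then Iqcf1 (0.96) and Uap1 (0.95), and 20 genes had r over 0.9. Il1b was closest to Htt, the huntingtin gene (0.95), then Gadd45gip1 (0.94) and Akr1b8 (0.93), with 10 genes over 0.9. Il1rn was closest to Smad2, a transducer of transforming growth factor-β signals (0.98), then Pter (0.96) and Tmprss13 (0.94), with 18 over 0.9. Il33 had 164 genes over 0.9, led by Emc8, a subunit gene of the endoplasmic reticulum membrane complex (0.98), Serpinb1a (0.97) and Mgat4a (0.97). Many of these closest genes were dim, with readings of 1.67 to 6.33 for Lrp2 and 1 to 6.2 for Iqcf1, within the range of the bacterial controls.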

How the data were processed

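The deposited table gives the authors' intensities, linear and by probe set, for 45101 probe sets on 8 Affymetrix arrays. The sources used here do not state how the authors summarised and scaled them. Per the labels' protocols, captured islet RNA was purified on columns with DNAse treatment, pooled from 5 mice, and amplified before labelling.

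Gene names came from the 2016 platform annotation (34958 probe sets with 1 symbol, 932 with several, 9211 with none). A pseudocount of 2.155, the median of the arrays' 25th percentiles, was added before taking log2. Array medians on that scale spanned 0.21, under a limit of 0.3, so the deposited scale was kept. Probe sets at or above the array median on at least 2 of 8 arrays were kept, and for each gene the one with the highest mean log2 value was used, leaving 16397 genes.

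Tests used lmFit and eBayes (with a variance trend) of limma 3.58.1 under R 4.3.3, adjusted by Benjamini and Hochberg over all genes, with 0.05 as the threshold. The 6 arrays of matched days (3, 4 and 8) gave the comparison of the arms, blocked by day, since the labels pair the arms by day. A model of 3 groups over all 8 arrays set each arm against the untreated array. Arrays of an arm come from different days, so the spread includes change over time, and the small number of arrays sets the precision. The balance of antagonist and cytokine was tested by exact permutation. Fits were also run on data simulated with independent noise. Those data held no day effects and no array that stood apart, so the simulation does not bear on either. Alternatives were other pseudocounts, filters, normalizations, probe set rules, no block, and each array or day pair left out. Genes named beyond the members are those with the greatest differences of each pathway list, the 3 closest patterns and all tested interferon-γ response genes. The interleukin-18 receptor chains, Casp1, Ifng and Il4 were added after their values were seen. Cell type markers named singly, and genes named for the split of Il1r1, were also picked after their values were seen. The members and lists were chosen with earlier results of these data known. Promoters came from RefSeq (GRCm38.p6), and all 8 members were matched by symbol.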

Additional observations from a re-analysis of the deposited data

How the results depend on the processing

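No member passed in any of the 3 limma comparisons under any alternative except Il18bp between the arms after cyclic loess, where 1 member passed (1.83, adjusted p = 0.0430) and the median difference of all genes was 0.0085, against -0.07 as reported and -0.12 to -0.025 under the other alternatives. Over 12 alternatives the arm difference ran from 0.999 to 1.83 for Il18bp (adjusted p at least 0.0430), from -1.06 to -0.48 for Il1b (adjusted p at least 0.471), from 0.046 to 0.67 for Il1rn, from -0.37 to -0.037 for Il1r1, from -0.25 to -0.036 for Il1r2 and from -0.73 to -0.24 for Il33.

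Over all genes, the 18 passing between the arms became 10 with the pseudocount at 4 times its value, 10 with no filter, 1 after quantile normalization, 1 with the mean of probe sets, and 32 to 69 when a day pair was left out. Without the replicate block, that is with the day pairing ignored, 0 genes passed by limma (272 at an unadjusted p under 0.05), and no member's call changed. For the protected arm against untreated islets, 0 became 1 after quantile normalization or with every probe set, and 0 to 2 when an array was left out. The cause of these shifts was not tested.

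Signs turned in limma differences smaller than their SE. Between the arms Il18 turned to 0.047 after cyclic loess and ran from -0.35 to 0.52 when a day pair was left out. For the diabetogenic arm against untreated islets, Il33 turned to 0.063 after cyclic loess and to 0.30 with the day 3 array alone. With an array left out, that comparison ran from -0.33 to 0.16 for Il33, from -0.085 to 0.63 for Il1b and from -0.40 to 0.081 for Il18. For the protected arm, Il1rn turned to -0.00058 after quantile normalization, and with an array left out the difference ran from -0.019 to 0.043 for Il1rn, from -0.24 to 0.045 for Il18 and from -0.33 to 0.096 for Il1r2. Most readings of the members other than Il18bp and Il1b lay within the range of the bacterial controls, which limits what could be detected.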
